A study of Mus musculus with 11 samples.

Results

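The Fc gamma receptor genes of mouse macrophages were read in RNA sequencing data of cells given a microRNA-150 (miR-150) mimic or a negative control. The 6 members are Fcgr1, Fcgr2b, Fcgr3, Fcgr4, Fcer1g and Fcgrt, taken by gene symbol from the 31936 genes of the deposited table. All 6 passed the filter on low values, which kept 12969 genes. Fcgr1 and Fcgr4 were higher in mimic cells, 2.5-fold and 1.72-fold. Fcgr3 and Fcgrt were lower there by smaller amounts, 1.16-fold and 1.2-fold, and Fcgr2b and Fcer1g did not pass the test.

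Fc gamma receptors are surface proteins that bind the constant part of IgG, so that a phagocyte takes up or answers to particles and complexes coated with antibody. In the mouse the high-affinity receptor Fcgr1 and the lower-affinity receptors Fcgr3 and Fcgr4 are activating: each pairs with the common gamma chain, encoded by Fcer1g, whose ITAM motif (a pair of tyrosines phosphorylated by Src family kinases) recruits the kinase Syk. Fcgr2b carries an ITIM motif instead, which recruits the lipid phosphatase encoded by Inpp5d and dampens those signals, while Fcgrt encodes the heavy chain of FcRn, an endosomal receptor built like a class I MHC molecule that returns IgG and albumin to the cell surface.

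The cells were peritoneal macrophages of female mice, elicited with thioglycollate, an irritant that draws inflammatory macrophages into the abdominal cavity. The miR-150 mimic, a synthetic RNA that stands in for the mature microRNA, was given in 6 libraries (replicates 1 to 6), and the negative control in 5 libraries (replicates 1, 2, 3, 4 and 6). No strain, age, dose or time is given in the sources used here, and the series' text states that 1 further sample was prepared and left out for poor fragmentation. Whether replicates stem from different mice or culture wells is not stated, and the p-values then describe only how far these libraries vary, a variation that may be technical.

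Mimic libraries held 20313901 to 25473814 reads and control libraries 18538509 to 22668862. All 7 macrophage markers were tested, and their summed level was 15700 to 20000 CPM (counts scaled to a common library total) in mimic libraries and 17700 to 20500 CPM in control libraries. Adgre1 passed the test as higher (log2 fold change 0.18) and Cd14 (-0.26) and Lyz2 (-0.23) as lower. Without mimic replicates 3, 4 and 6, which are described in the next paragraph, Cd14 and Lyz2 were both at -0.10 and did not pass (adjusted p = 0.126 and 0.402). Lyz2 also lost its call after a correction for transcript length (adjusted p = 0.0666) and without any 1 of mimic replicates 3, 4 and 6 or control replicates 1 and 2. Summed markers of other cells that carry Fc receptors were low: B cells 2.30 to 3.81 CPM in mimic and 3.06 to 4.94 CPM in control libraries, natural killer cells 0.304 to 0.780 CPM and 0.394 to 0.687 CPM, neutrophils 11.8 to 22.3 CPM and 19.9 to 27.2 CPM. Mast cell markers summed to 0.781 to 1.42 CPM in mimic and 0.422 to 0.973 CPM in control libraries, T cell markers to 0.740 to 0.965 CPM and 0.788 to 0.897 CPM, dendritic cell markers to 3.61 to 5.00 CPM and 4.20 to 5.75 CPM, and eosinophil markers, carried mainly by Siglecf, to 27.4 to 29.2 CPM and 33.8 to 36.1 CPM. No marker on any of these lists was at 0 reads in all libraries. The neutrophil genes S100a8 (log2 fold change -0.56) and Mmp9 (-0.63), Ighm (-0.75), Siglecf (-0.31) and Cd209a (-1.45) were lower, and their part in the receptor results was not tested. S100a8 and Mmp9 carried most of the neutrophil sum. On the same list Ltf was not called (-0.35, limma, adjusted p = 0.21). S100a9, Ly6g and Camp were under the filter, with 0, 3 and 5 reads over the mimic libraries and 2, 3 and 3 over the controls. Without mimic replicates 3, 4 and 6 S100a8 was at -0.36 (adjusted p = 0.211), Mmp9 at -0.36 (0.0403) and Ighm at -0.45 (0.206). Ighm also failed without any 1 of mimic replicates 3 and 6 or control replicates 1, 2 and 3, and Cd209a without control replicate 1 (adjusted p = 0.0518). Cd209a was near the floor, with 1 to 10 reads per mimic library and 9 to 17 per control library. It reached the filter's limit of -1 log2 CPM in every control library but only in replicate 1 of the mimic group. It thus entered the test through the controls.

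Short transcripts were read less in some mimic libraries than in the controls. Over the 928 tested genes whose longest transcript is under 1000 nt, the median log2 difference from the control mean was 0.04 in mimic replicate 1, -0.21 in replicate 2, -0.24 in replicate 3, -0.32 in replicate 4, -0.11 in replicate 5 and -0.26 in replicate 6, against -0.05 to 0.04 in the control libraries. Earlier work on these data had set mimic replicates 3, 4 and 6 apart. Each fold change of a receptor gene that rests on them is therefore also given without these 3 libraries and after a correction for transcript length within each library.

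Fcgr1, on chromosome 3 (96282909 to 96293969, minus strand; GRCm38, GENCODE M21), encodes the high-affinity IgG receptor. Its level was 8.14, 8.16, 8.03, 7.92, 8.27 and 8.04 log2 CPM in mimic replicates 1 to 6, against 6.68, 6.68, 7.11, 6.69 and 6.68 log2 CPM in control replicates 1, 2, 3, 4 and 6. Every mimic library lay above every control library, and control replicate 3 stood above the other controls, which lay within 0.01 of each other. On the linear scale the mean over libraries was 274 CPM in mimic cells and 110 CPM in control cells. These came from 5556 to 7618 reads and 1942 to 3117 reads per library. The log2 fold change was 1.32 ± 0.0781 (SE; limma, adjusted p = 4.05e-09 over the 12969 genes), from means of 8.09 ± 0.122 (SD, n = 6) and 6.77 ± 0.189 (SD, n = 5). The exact permutation p, two-sided, was 0.00216, the least that 462 assignments of the libraries allow.

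Fcgr4, an activating receptor for IgG2a and IgG2b expressed on mouse macrophages, monocytes and neutrophils, lies on chromosome 1 (171018920 to 171029761, plus strand). It was read at 7.17, 7.08, 6.79, 6.71, 7.16 and 6.61 log2 CPM in mimic replicates 1 to 6, against 6.17, 6.12, 6.19, 6.12 and 6.06 log2 CPM in the controls. The groups again did not overlap, and mimic replicates 3, 4 and 6 were the lowest 3 of the mimic group. The log2 fold change was 0.79 ± 0.0944 (SE; limma, adjusted p = 3.13e-05; exact permutation p = 0.00216), with 123 CPM in mimic cells and 70.3 CPM in control cells. Without mimic replicates 3, 4 and 6 it was 1.00 ± 0.0397, and after the length correction 0.91 ± 0.0626; Fcgr1 gave 1.42 ± 0.114 and 1.34 ± 0.0724 in the same fits.

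These 2 higher members stand beside a background of 15.4% of all tested genes called higher, and 8.89% of all tested genes had every mimic library above every control library. In bulk samples such as these, fewer cells of a type and less RNA per cell cannot be told apart, and the same holds for more.

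**Figure D1:**
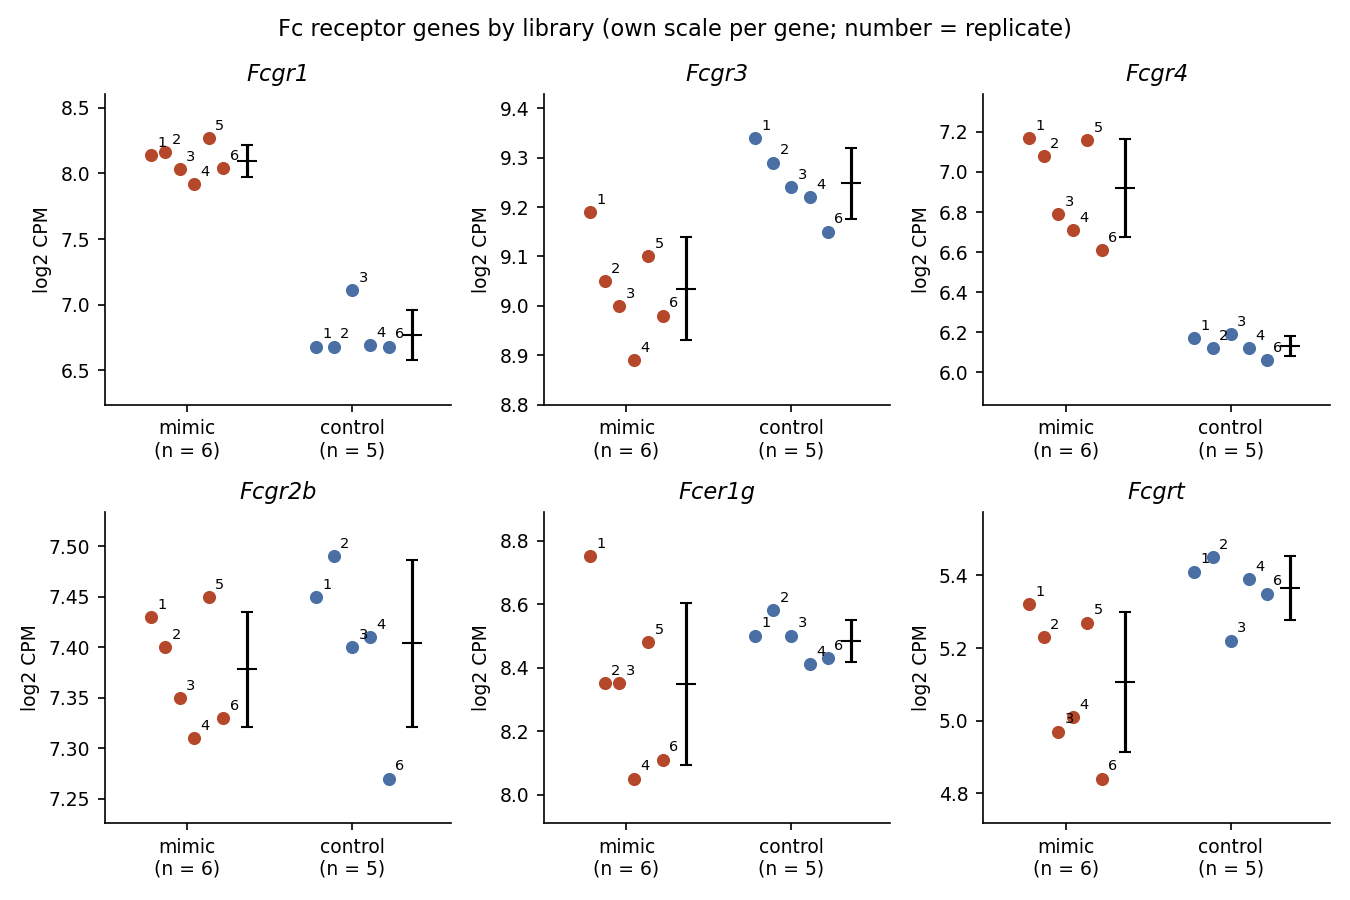
Level of each Fc receptor gene (log2 CPM, vertical axis, own scale per gene) in the 6 mimic libraries (red, left) and the 5 control libraries (blue, right), numbered by replicate, with the group mean and SD as a bar. Fcgr1 and Fcgr4 do not overlap between groups, while the mimic libraries of Fcer1g run from 8.05 to 8.75 around controls at 8.41 to 8.58.

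The promoters of the 2 genes that were higher are shown because the transcription factors described further on include some known to bind motifs of the kinds marked here. The bases are from RefSeq (GRCm38.p6), read 5′ to 3′ on the strand of the gene. Capitals in the Fcgr1 sequence mark TTCNNNGAA, the gamma-activated site (GAS) of STAT dimers, and capitals in the Fcgr4 sequence mark GAAANNGAAA, the core of the interferon-stimulated response element (ISRE) bound by IRF9 complexes and IRF proteins.
Fcgr1, chr3:96293970-96294169, minus strand, bases -200 to -1 from the start: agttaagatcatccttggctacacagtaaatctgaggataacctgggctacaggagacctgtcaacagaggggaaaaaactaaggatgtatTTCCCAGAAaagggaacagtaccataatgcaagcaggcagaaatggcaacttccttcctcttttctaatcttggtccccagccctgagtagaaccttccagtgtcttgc
Fcgr4, chr1:171018720-171018919, plus strand, bases -206 to -7 from the start: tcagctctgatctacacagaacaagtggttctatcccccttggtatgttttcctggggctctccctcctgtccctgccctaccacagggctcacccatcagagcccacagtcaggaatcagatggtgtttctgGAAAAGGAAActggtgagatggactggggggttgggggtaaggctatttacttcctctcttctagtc
The GAS letters of Fcgr1 begin at -109 and read TTCCCAGAA, and the ISRE letters of Fcgr4 begin at -73 and read GAAAAGGAAA. In windows running 250 bases before to 50 after each start, searched on both strands, GAS letters were in 8.3% and ISRE letters in 3.44% of 32851 windows. Neither motif was found in the windows of Fcgr2b, Fcgr3 (2 windows), Fcer1g or Fcgrt. The Fcgr3 windows, at 171059345 and 171059354, lie inside the GENCODE span of this minus-strand gene. Its GENCODE start at 171064935 was therefore not searched. GAGGAA, the core bound by the macrophage factor PU.1, was on the opposite strand at -55 in Fcgr1, -22 in Fcgr4 and at 1 place in Fcgr3, which lies at -15 or -6 depending on which of its 2 overlapping windows sets the start. It was in 28.3% of all windows, and none of these 3 matches overlaps a GAS or ISRE match. A match describes letters in a window and not binding.

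Fcgr3 is the activating low-affinity receptor on chromosome 1 (171051174 to 171064935, minus strand). Its level was 9.19, 9.05, 9.00, 8.89, 9.10 and 8.98 log2 CPM in mimic replicates 1 to 6 and 9.34, 9.29, 9.24, 9.22 and 9.15 log2 CPM in the controls. In 5 of the 6 mimic libraries it was below every control, and mimic replicate 1 lay within the control range. The log2 fold change was -0.21 ± 0.0513 (SE; limma, adjusted p = 0.00646; exact permutation p = 0.00866), from 526 CPM in mimic and 609 CPM in control cells. The difference exceeded the SD of either group, 0.105 in mimic and 0.0725 in control libraries. It was -0.13 ± 0.0405 without mimic replicates 3, 4 and 6 (adjusted p = 0.025) and -0.10 ± 0.0327 after the length correction (adjusted p = 0.0261), so its size moved by over 1.5 times while the call held.

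Fcgr2b, the inhibitory receptor, lies at 170958617 to 170976547 on the minus strand of chromosome 1. It was at 7.43, 7.40, 7.35, 7.31, 7.45 and 7.33 log2 CPM in mimic replicates 1 to 6, against 7.45, 7.49, 7.40, 7.41 and 7.27 log2 CPM in the controls. The mimic libraries lay inside the control range. Its log2 fold change of -0.03 ± 0.0443 did not pass the test (limma, adjusted p = 0.668; exact permutation p = 0.524). In the authors' deposited table its confidence limits run from -0.11 to 0.05, a range that does not reach the difference of any called member in the fit to all 11 libraries.

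Fcer1g, the signalling chain shared by the activating receptors, lies at 171229572 to 171234365 on the minus strand of chromosome 1. Mimic replicates 1 to 6 had 8.75, 8.35, 8.35, 8.05, 8.48 and 8.11 log2 CPM, against 8.50, 8.58, 8.50, 8.41 and 8.43 log2 CPM in the controls. The mimic group was the wider, with replicate 1 above all controls and 4 libraries below all of them. The log2 fold change was -0.14 ± 0.0992 (limma, adjusted p = 0.314; exact permutation p = 0.275). Without mimic replicate 1 it was -0.22 with an adjusted p of 0.0142, without replicates 3, 4 and 6 it was 0.04, and after the length correction 0.09 (adjusted p = 0.158), so no direction can be given. Its longest transcript, at 683 nt, falls among the short ones whose reading differed between mimic libraries.

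Fcgrt, the FcRn heavy chain, lies on chromosome 7 (45092990 to 45103851, minus strand). It had 5.32, 5.23, 4.97, 5.01, 5.27 and 4.84 log2 CPM in mimic replicates 1 to 6, against 5.41, 5.45, 5.22, 5.39 and 5.35 log2 CPM in the controls. Mimic replicates 3, 4 and 6 were below every control and the other 3 lay within the control range. The log2 fold change was -0.26 ± 0.0789 (limma, adjusted p = 0.0214; exact permutation p = 0.0281), and it rested on those 3 libraries: without them it was -0.10 ± 0.0512 with an adjusted p of 0.228. The call was also lost without mimic replicate 3 alone (adjusted p = 0.0515), without control replicate 2 (0.0568) and with a plainer moderation (0.0523), and it held after the length correction at -0.19 (0.0226). Against these 2 members called lower, 14.6% of all tested genes were called lower, and 6.04% had every mimic library below every control, as none of the 6 members did.

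**Figure D2:**
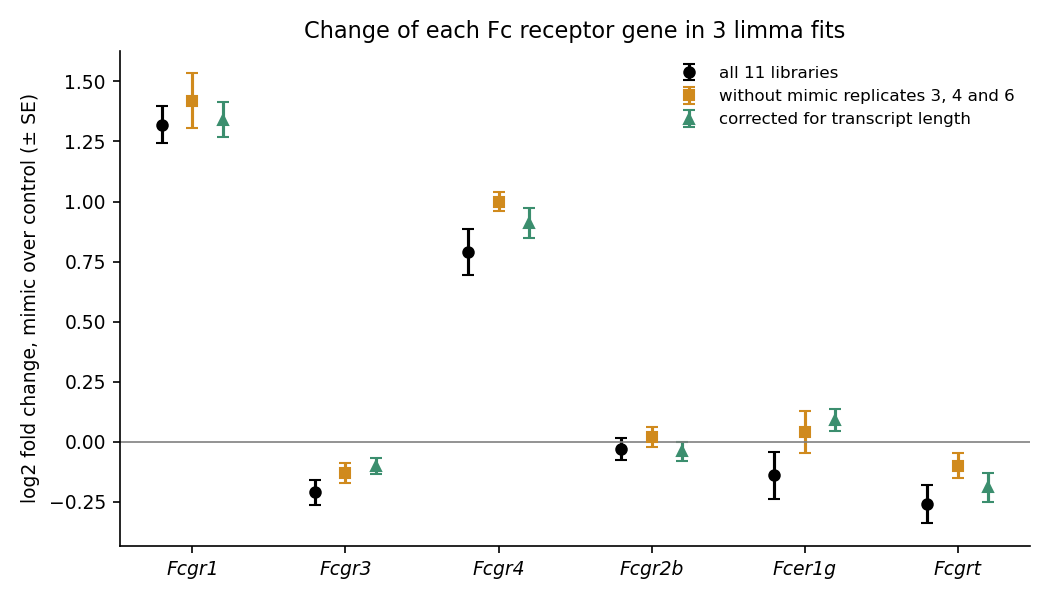
Log2 fold change of mimic over control (vertical axis) for each Fc receptor gene in 3 limma fits, with the standard error as a bar: all 11 libraries (black), without mimic replicates 3, 4 and 6 (orange) and corrected for transcript length (green). Fcgr1 stays between 1.32 and 1.42 and Fcgr4 between 0.79 and 1.00, Fcgr3 stays below 0, and Fcer1g runs from -0.14 to 0.09.

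The authors' deposited table gave a log2 fold change of 1.32 for Fcgr1 (limits 1.16 to 1.47), 0.78 for Fcgr4 (0.58 to 0.97), -0.22 for Fcgr3 (-0.31 to -0.13) and -0.27 for Fcgrt (-0.43 to -0.10). In the authors' deposited table Fcer1g was at -0.15 (-0.32 to 0.02), and the adjusted p was below 0.05 for the same 4 members as here.

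Levels can be set side by side between genes only per length, here as CPM per kilobase of the longest transcript (RPKM). In mimic cells the order was Fcer1g at 483 RPKM, Fcgr3 at 391, Fcgr1 at 106, Fcgr4 at 97.6, Fcgr2b at 46.9 and Fcgrt at 19.6. In control cells Fcer1g was at 525 RPKM, Fcgr3 at 452, Fcgr4 at 55.9, Fcgr2b at 47.9, Fcgr1 at 42.4 and Fcgrt at 23.3. Neighbours overlapped in the mimic libraries for Fcer1g (388 to 629 RPKM) and Fcgr3 (352 to 435), and for Fcgr1 (93.4 to 119) and Fcgr4 (77.8 to 115). In the control libraries Fcgr1 (39.6 to 53.2 RPKM) overlapped Fcgr2b (43.5 to 50.7) and, through replicate 3 alone, Fcgr4 (53.1 to 58.2), so Fcgr1 and Fcgr2b have no fixed order there. The place of Fcgr2b depends on which of its transcripts is taken: over the union of its exons it was at 28.7 RPKM in mimic and 29.3 RPKM in control cells.

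The make-up of the 4 surface receptors for IgG changed accordingly. Fcgr1 made up 16.5% ± 0.640 (SD, n = 6) of their summed RPKM in mimic cells and 7.09% ± 0.970 (SD, n = 5) in control cells. Fcgr4 made up 15.1% ± 1.43 in mimic and 9.35% ± 0.218 in control cells. The share of Fcgr3 was 61.0% ± 1.32 in mimic cells and 75.6% ± 1.05 in control cells, so it remained the most abundant of the 4 in every library. Fcgr2b made up 7.35% ± 0.327 in mimic and 7.99% ± 0.222 in control cells. The sum of all 4 was 641 ± 53.0 RPKM in mimic and 599 ± 27.2 RPKM in control cells, with overlapping libraries (573 to 707 and 558 to 628). Over union exon lengths the shares were 19.8% and 8.86% for Fcgr1, 18.1% and 11.7% for Fcgr4, 56.7% and 73.3% for Fcgr3, and 5.39% and 6.12% for Fcgr2b, each with the mimic share given before the control share. These shares have no test of their own, since they combine the members.

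**Figure D3:**
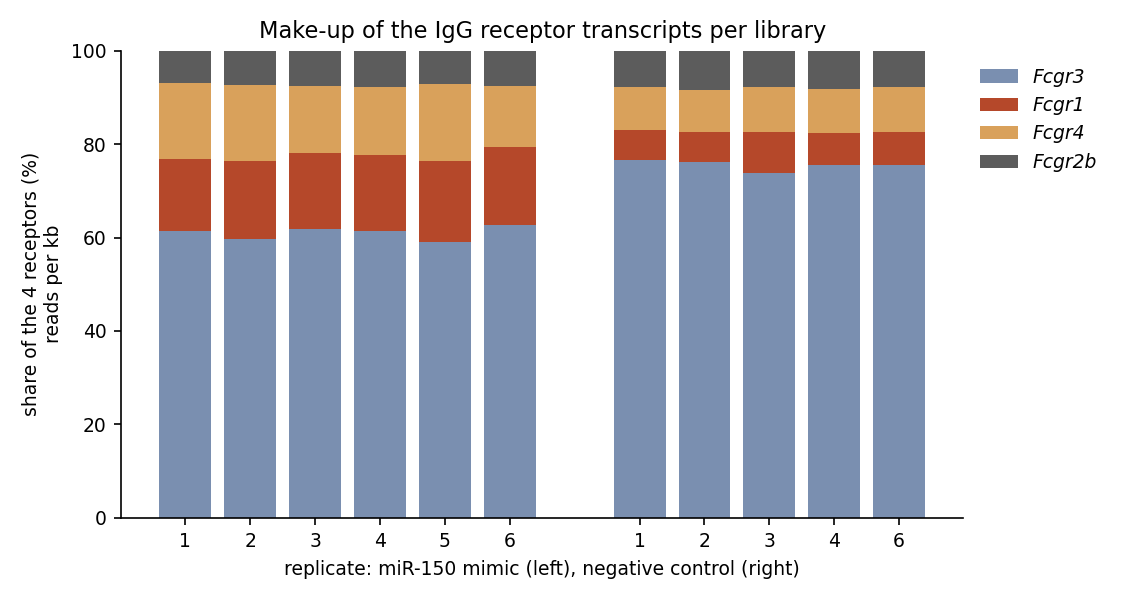
Share of each IgG receptor in the summed reads per kilobase of the 4 receptors (vertical axis, %), 1 bar per library, mimic libraries on the left and control libraries on the right. The Fcgr3 share lies between 59.1% and 62.6% in mimic libraries and between 73.9% and 76.7% in control libraries.

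Set against the inhibitory receptor within each library, the activating receptors parted ways. The log2 ratio of Fcgr1 to Fcgr2b in CPM was 0.72 ± 0.0707 in mimic cells (0.61 to 0.82) and -0.64 ± 0.208 in control cells (-0.81 to -0.29). For Fcgr4 to Fcgr2b it was -0.46 ± 0.191 in mimic cells (-0.71 to -0.26) and -1.27 ± 0.0641 in control cells (-1.36 to -1.21). Both ratios were thus higher in every mimic library than in any control library. Fcgr3 to Fcgr2b went the other way, at 1.66 ± 0.0589 in mimic cells (1.58 to 1.76) and 1.85 ± 0.0382 in control cells (1.80 to 1.89). Relative to the signalling chain, the log2 ratio of Fcgr1 to Fcer1g was -0.25 ± 0.190 in mimic cells (-0.61 to -0.08) and -1.72 ± 0.191 in control cells (-1.90 to -1.40). In the order given, the ratios differed by 1.35, 0.81, -0.19 and 1.46, mimic minus control. Without mimic replicates 3, 4 and 6 the differences were 1.4, 0.98, -0.16 and 1.38. Neither the ratios nor the shares were corrected for transcript length.

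Fcgr2b and Fcgr3 share sequence, which bears on how reads were assigned to them. Their coding sequences were identical at 671 of 781 aligned positions (85.9%), against 60.5% to 66.2% for the other receptor pairs. The stretch holding their longest identical run, 129 nt, is shown from the GENCODE M21 annotation of GRCm38, with capitals at the 5 bases that differ.
Fcgr2b, coding bases 248 to 436: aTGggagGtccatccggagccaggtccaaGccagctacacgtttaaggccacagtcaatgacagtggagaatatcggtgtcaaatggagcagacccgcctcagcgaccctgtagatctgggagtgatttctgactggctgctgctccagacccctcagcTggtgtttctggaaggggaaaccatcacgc
Fcgr3, coding bases 233 to 421: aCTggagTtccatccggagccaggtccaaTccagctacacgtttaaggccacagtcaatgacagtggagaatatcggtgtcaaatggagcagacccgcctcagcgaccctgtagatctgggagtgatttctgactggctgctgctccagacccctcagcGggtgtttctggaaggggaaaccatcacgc
Of all 50-base stretches of their transcripts, 166 were common to both, out of 5685 for Fcgr2b and 1733 for Fcgr3 (9.58%). Fcgr2b had 249 stretches (4.38%) in common with any other gene, Gm4117 and Gm33843 included. These shares do not give the size of an error in the values. Fcgr3 had 73518 reads over the mimic libraries and 62577 over the controls, against 23296 and 17406 for Fcgr2b. An equal number of misassigned reads would therefore weigh more on Fcgr2b. The authors' handling of such reads is unknown, and how far it moved the values of both genes was not tested. Fcgr1, Fcgr4, Fcer1g and Fcgrt had no 50-base stretch in common with another gene. Fcgr2b also overlaps exons of the antisense gene Gm38204, and without a stated strand setting reads of the pair cannot be told apart.

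Fcgr2b, Fcgr4, Fcgr3 and Fcer1g lie in 1 cluster on chromosome 1, and their neighbours were read to see whether the region moved as a whole. Within 100 kb of the cluster 18 of 29 annotated genes were tested. Besides Fcgr4 and Fcgr3, 1 gene passed the test as higher: Atf6, an endoplasmic reticulum stress factor, at 0.12 ± 0.0378 (limma, adjusted p = 0.0278). Fcrlb, the neighbour of Fcgr2b in the Fc receptor-like family, was at -0.13 ± 0.134 (adjusted p = 0.494). Sdhc, between Fcgr3 and Fcer1g, was at -0.02 ± 0.0489 (adjusted p = 0.779). Atf6, Fcrlb and Sdhc were chosen for naming after their values were seen.

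**Figure D4:**
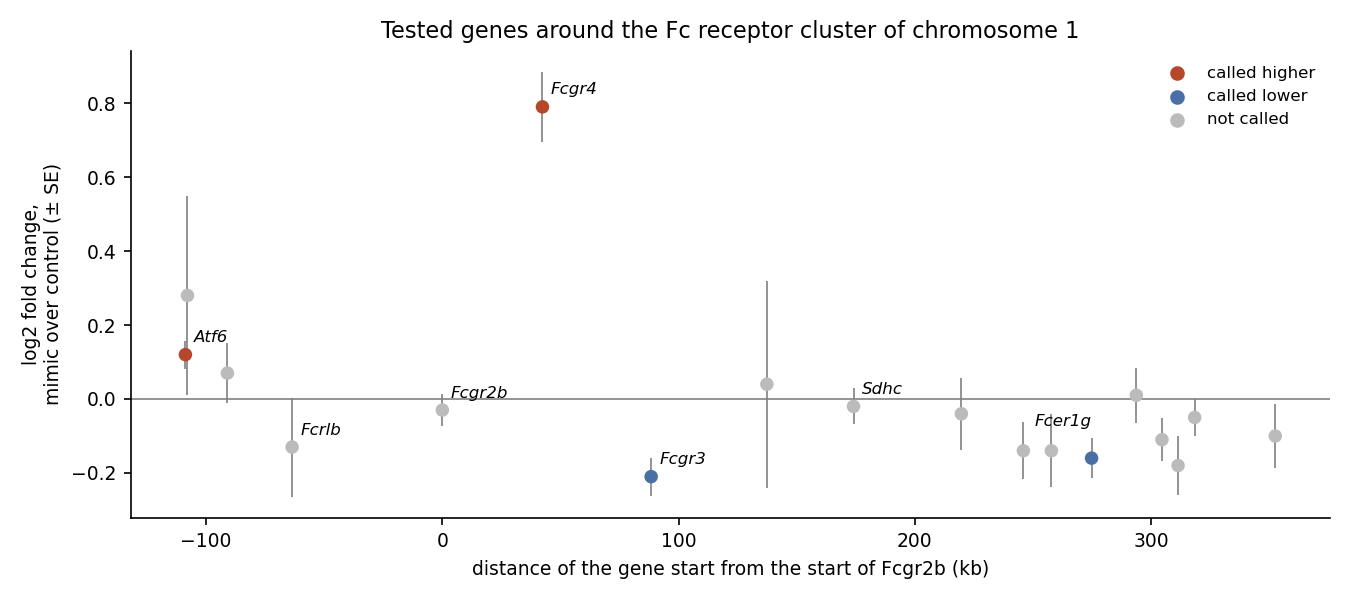
Log2 fold change of mimic over control (vertical axis, with SE) of the 18 tested genes around the Fc receptor cluster of chromosome 1, placed by the distance of their start from that of Fcgr2b (horizontal axis, kb). Fcgr4 stands at 0.79, and the next called gene upward, Atf6, at 0.12.

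Signalling below the receptors moved by small amounts. Of 26 genes of activating signalling, all tested, 8 were higher and 3 lower in mimic cells, at a median log2 fold change of 0.05 against 0.000713 over all tested genes. These are 30.8% and 11.5% of the list, against 15.4% higher and 14.6% lower over all tested genes, the background for each list that follows. Lyn, a Src family kinase that phosphorylates ITAM and ITIM motifs, rose by 0.26 ± 0.0393 (limma, adjusted p = 0.000185). The adaptor Lcp2 (SLP-76) rose by 0.25 ± 0.0434 (adjusted p = 0.000635) and the guanine nucleotide exchange factor Vav1 by 0.14 ± 0.041 (adjusted p = 0.0175), a call lost without control replicate 6 (0.0547). Syk, named after its value was seen, was at 9.09 ± 0.0506 log2 CPM in mimic and 9.08 ± 0.0357 log2 CPM in control cells, a difference of 0.01 ± 0.0363 (adjusted p = 0.88). The count of higher genes was 5 without mimic replicate 3, mimic replicate 6, control replicate 2 or control replicate 4, and 4 without control replicate 6, and the count of lower genes was 1 without mimic replicate 6, control replicate 2 or control replicate 4. Without mimic replicates 3, 4 and 6 together it was 5 higher and 1 lower.

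Of 14 genes listed under inhibitory signalling, all tested, 5 were higher (35.7%, against 15.4% of all tested genes) and 1 lower (7.14%, against 14.6%). The list's median was 0.06. Being listed does not show in which direction a gene acts in these cells, Ptprc included. Ptprc, the phosphatase CD45, rose by 0.28 ± 0.0546 (limma, adjusted p = 0.00178), and Ptpn6, the phosphatase SHP-1 recruited by ITIM motifs, by 0.21 ± 0.0446 (adjusted p = 0.00273). Without mimic replicates 3, 4 and 6 Ptprc was at 0.16 and still passed (adjusted p = 0.001). Ptpn22, a phosphatase that acts on Src family kinases, rose by 0.29 ± 0.0745 (adjusted p = 0.0096), and Inpp5d, the partner of Fcgr2b, by 0.12 ± 0.0348 (adjusted p = 0.0143). Inpp5d did not pass after the length correction (0.08, adjusted p = 0.0823), where 3 genes of this list were higher and 2 lower. The count of lower genes was 2 without mimic replicate 1 or mimic replicate 2, and 0 without mimic replicates 3, 4 and 6 together.

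Among 24 genes of the phagocytic actin machinery and the oxidase, 4 were higher (16.7%, against 15.4% of all tested genes) and 6 lower (25.0%, against 14.6%), and the median was 0.01. Actr3, a subunit of the Arp2/3 complex, rose by 0.24 ± 0.0388 (limma, adjusted p = 0.00037), and Nckap1l, of the WAVE complex, by 0.19 ± 0.0424 (adjusted p = 0.00362), or 0.12 without mimic replicates 3, 4 and 6 (0.0103). Cybb, the membrane subunit gp91phox of the oxidase, rose by 0.23 ± 0.0459 (adjusted p = 0.00194). The count of lower genes fell to 3 without mimic replicate 3, 4 or 6 or control replicate 1, 3 or 6, and to 2 without control replicate 2 or without mimic replicates 3, 4 and 6 together.

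Other receptors for immunoglobulin were mostly too low to test, with 4 of 13 past the filter, of which 2 were higher and none lower (median 0.18), too few to set against the background. Trim21, the cytosolic receptor for antibody, rose by 0.65 ± 0.0559 (limma, adjusted p = 1.88e-07). Fcrl1, listed here as a member of the Fc receptor-like family, rose by 0.49 ± 0.113 (adjusted p = 0.00512). Whether Fcrl1 binds antibody is not shown by these data. B2m, the light chain that FcRn shares with class I MHC molecules, was at 12.18 ± 0.123 log2 CPM in mimic and 11.55 ± 0.0919 log2 CPM in control cells, a rise of 0.63 ± 0.0584 (adjusted p = 5.21e-07) with all 6 mimic libraries above every control. Its heavy chain partner Fcgrt, described above, was at -0.26.

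Receptors and adaptors that signal beside Fcer1g were taken next. This list of 15 mixes ITAM adaptors, partners of the gamma chain, and genes that signal through other adaptors or motifs. Of the 15, 13 were in the table and 10 tested, with 1 higher, 2 lower and a median of -0.05. Those counts lie near the background shares of 15.4% higher and 14.6% lower. Hcst (the adaptor DAP10, which has no ITAM) was at -0.72 ± 0.145 (limma, adjusted p = 0.00356) and Tyrobp (the ITAM adaptor DAP12) at -0.42 ± 0.137 (adjusted p = 0.0358). Clec7a (the beta-glucan receptor Dectin-1, with an ITAM-like motif of its own) was at 0.15 ± 0.047 (adjusted p = 0.0277). None of these 3 passed without mimic replicates 3, 4 and 6, where Hcst was at -0.47 (adjusted p = 0.104), Tyrobp at -0.18 (0.45) and Clec7a at 0.16 (0.0741). After the length correction Tyrobp, whose longest transcript has 597 nt, was at -0.18 and did not pass (adjusted p = 0.0542), and Hcst, at 442 nt, was at -0.44 and passed (0.000202). Tyrobp also failed when any 1 of 7 single libraries was left out (mimic replicate 2, 3, 4 or 6, or control replicate 1, 2 or 3), and Clec7a without mimic replicate 3 or control replicate 3, 4 or 6. The list then held 0 higher genes where Clec7a failed, 1 lower gene where Tyrobp failed, and 4 lower without mimic replicate 1.

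Receptors with ITIM motifs, the group to which Fcgr2b belongs by its motif, had 14 of 16 members tested, of which 7 were higher (against 15.4% of all tested genes) and 2 lower (14.3%, against 14.6%), with a median log2 fold change at 0.16. Cd72, known as an inhibitory coreceptor of B cells, rose by 1.19 ± 0.0728 (limma, adjusted p = 2.32e-09). Cd300lf rose by 0.73 ± 0.0532 (adjusted p = 2.25e-08) and the collagen receptor Lair1 by 0.46 ± 0.0399 (adjusted p = 2.47e-07). Lilr4b, the leukocyte immunoglobulin-like receptor without an ITIM, rose by 0.37 ± 0.0451 (adjusted p = 1.57e-05). For each of these 4 genes every mimic library lay above every control. The counts of 7 and 2 were the same without mimic replicates 3, 4 and 6.

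Of 12 transcription factors known at Fc receptor genes, all tested, 5 were higher (41.7%, against 15.4% of all tested genes) and 3 lower (25.0%, against 14.6%), and the median was -0.00. Stat2, a part of the complex that binds the ISRE, rose by 1.56 ± 0.0902 (limma, adjusted p = 4.79e-09), and Irf9, its DNA-binding partner there, by 0.71 ± 0.0517 (adjusted p = 2.29e-08). Cebpa, a myeloid factor, was lower at -0.35 ± 0.0622 (adjusted p = 0.000836), or -0.23 without mimic replicates 3, 4 and 6 (0.000501). Spi1, which encodes PU.1 and is named here after its value was seen, was at -0.17 ± 0.073 and did not pass (adjusted p = 0.0812).

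**Figure D5:**
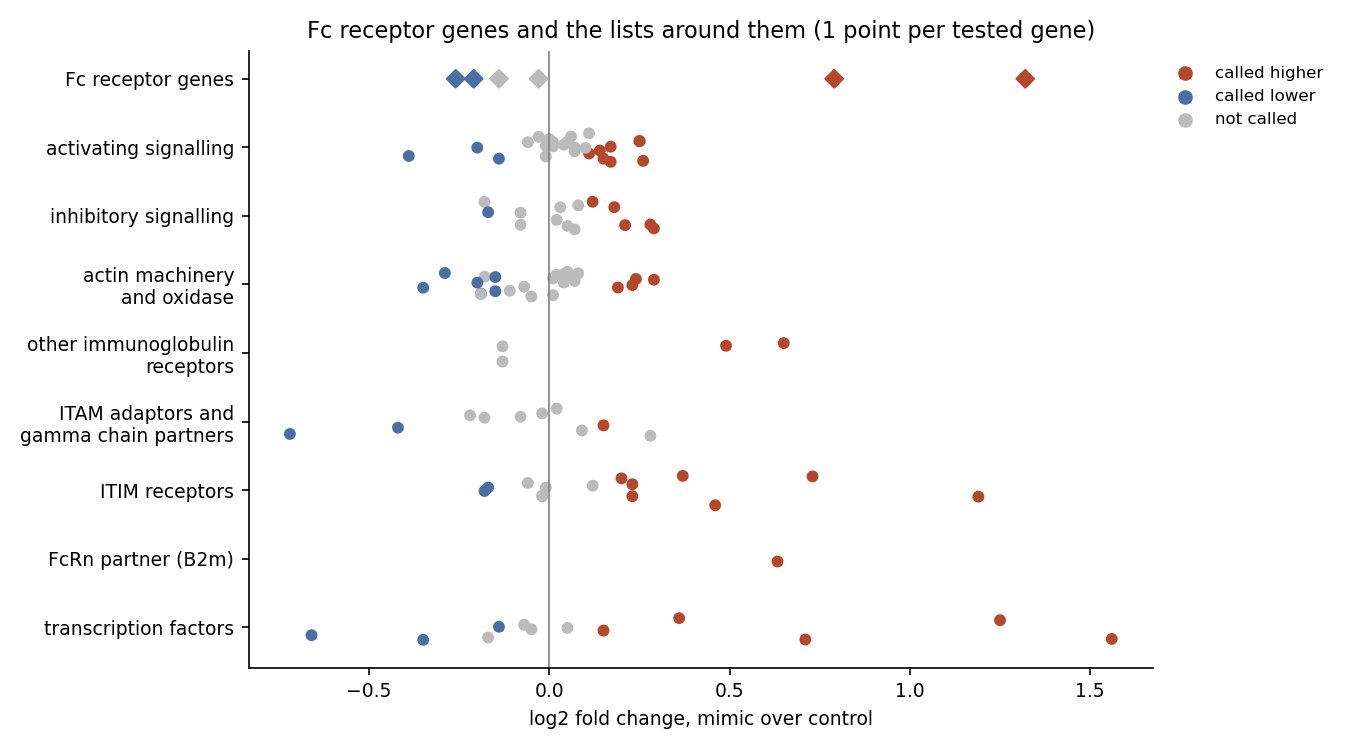
Log2 fold change of mimic over control (horizontal axis) of each tested gene, 1 point per gene, for the Fc receptor genes (diamonds) and the 8 lists around them, coloured by whether the gene was called higher, lower or neither. All tested genes of the activating, inhibitory and actin lists lie between -0.39 and 0.29, while the ITIM receptors reach 1.19 and the transcription factors 1.56.

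The genes whose profiles over the 11 libraries were closest to each member, by the root mean square (RMS) difference of centred log2 CPM, are a description without a test. For Fcgr1 they included the RNA helicase Dhx58 (RMS 0.0958) and Phf11a (0.101), against an RMS of 0.674 for Fcgr1 about its own mean. For Fcgr4 they were Ms4a6d (0.0748), Slamf9 (0.0798) and the class I gene H2-T22 (0.0875), against 0.426 about its own mean. Their log2 fold changes were 1.35 and 1.47 beside Fcgr1, and 0.78, 0.76 and 0.87 beside Fcgr4. The closest genes to Fcgr3 were Mob3a (0.0351), Serpinb6a (0.0353) and Hebp1 (0.0374), and those to Fcgrt were Rhebl1 (0.0433), Smim20 (0.0601) and Cdkn1c (0.0603). Fcer1g was nearest to Psmb2 (0.0407), Dnajc15 (0.0424) and Msrb1 (0.0472), and Fcgr2b to Uqcrc2 (0.0296), Igbp1 (0.0305) and Tvp23b (0.0317). The RMS about the own mean was 0.188 for Fcer1g and 0.065 for Fcgr2b.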

How the data were processed

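Expression was measured by RNA sequencing in 11 libraries, grouped by their titles. The submitters' processing notes name 4 tools (STAR, Subread, featureCounts, edgeR) without roles. Their versions, the build, the annotation and the strand setting are not given in the sources used here. Values in the deposited table are log2 CPM, each the log2 of whole reads plus 0.5 over a scaled library total, as the values show (100% whole within 0.01 read). The authors' deposited table also gives log2 fold changes, p-values and other test scores per gene, the scores not being used.

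The first row of each of 31936 genes in 32265 rows was kept. Linear models with a group term were fitted to the deposited log2 CPM with limma 3.58.1 in R 4.3.3 (intensity trend, robust), over the 12969 genes that reached -1 log2 CPM in 5 libraries or more. P-values were adjusted over these by Benjamini-Hochberg, with calls at 0.05. The fit was tested on simulated reads in which 50 genes each were changed by -1, -0.5, 0.5 and 1 log2. It recovered 46, 27, 36 and 50 of them, and 13 of its 172 calls were false. The simulated reads had the same dispersion for every gene and no trend with transcript length, which the data had. The main test was fitted to the deposited log2 values, and no negative binomial model was run on the recovered reads. Replicate pairs differed beyond sampling noise (chi-square per degree of freedom 2.41 to 39.5). Correlations of same-numbered libraries lay between -0.0606 and 0.0623, so the numbers were not taken as pairs.

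The members and lists were chosen with earlier results of these data known, and the 3 libraries set apart come from that work. Genes named are all members, up to 4 of each list past the threshold by smallest p (up to 2 where fewer than 2 passed), and the 3 nearest profiles of each member; a few of these are not reported here. Alternatives covered scaling, filter, pseudocount, moderation, threshold, replicate block, transcript length (lowess, span 0.3), a voom fit on recovered reads, and libraries left out. Lengths and coordinates are from GENCODE M21 (GRCm38), which may differ from the authors' annotation, and promoters from RefSeq (GRCm38.p6). Biopython 1.88 aligned coding sequences. The mature miR-150-5p sequence was not used here, so no target sites were searched.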

Additional observations from a re-analysis of the deposited data

Results flagged for a closer look

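Among the 5 control libraries, Fcgr1 in replicate 3 stood far from the others at 7.11 log2 CPM, a gap of 0.98 of the group's whole range against a critical value of 0.71. It was the single such value in 12 groups examined (6 genes in 2 treatments), where chance alone flags about 1 group in 20. All 6 mimic libraries lay above it.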

How the results depend on the processing

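The higher calls of Fcgr1 and Fcgr4 and the lower call of Fcgr3 held in all 22 alternatives. Fcgrt kept its direction but not its call without trend and robust settings (-0.26, adjusted p = 0.0523), without mimic replicates 3, 4 and 6 (-0.10) and at a threshold of 0.01 (-0.26); each of these left 1 member called lower. Over single omissions Fcgrt ran from -0.30 to -0.21, Fcer1g from -0.22 to -0.08, members called lower from 1 to 3 and list genes called lower from 9 to 23. Of these, 17 list genes were called lower with all libraries, against 11 without mimic replicate 3 or 4, 10 without mimic replicate 6 and 9 without control replicate 2. Fcer1g changed sign after the length correction (0.09) and, like Fcgr2b (0.02), without mimic replicates 3, 4 and 6 (0.04). That omission also left 1214 genes higher and 886 lower across the table and 8 list genes lower, and gave a difference of 0.98 for Fcgr4 to Fcgr2b; a threshold of 0.01 left 967, 792 and 7. Beyond the smaller number of libraries and the stricter limit, the cause was not tested. With replicate number as a block, which the labels do not tie to a shared source, 1777 genes were higher and 1796 lower, and no member's call changed (Fcgr1 1.29, Fcgr4 0.74, Fcgr3 -0.23, Fcgrt -0.29). The voom fit on the recovered reads called 2962 genes higher and 2665 lower. The shallowest member, Fcgrt, had at least 732 reads in each mimic and 774 in each control library.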
